A study of Mus musculus with 12 samples.

Results

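10 genes that mark or specify the projection neurons of the deep cortical layers were followed in RNA from the ventricular zone of the mouse dorsal cortex. They were chosen by symbol, as established markers and regulators of these neurons: Tbr1, Bcl11b, Fezf2, Sox5, Foxp2, Tle4, Ldb2, Crym, Nr4a2 and Hs3st4. The choice was made with earlier results of these data known, so counts of calls beside the shares of all genes are descriptions only. All 10 of the 10 members were found among the 55487 gene identifiers of each library, and all 10 passed the filter on low counts that left 16798 genes for testing.

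The 12 polyA RNA libraries fell into 4 groups of 3: p18mKO2+ and p18mKO2- tissue at embryonic day E16.5, and p18mKO2+ and p18mKO2- tissue at E13.5. The mouse line carries a conditional knock-in at ROSA26 in which a loxP-flanked stop precedes a p18-P2A-mKO2 cassette, so that Cre recombination switches on p18, a cyclin-dependent kinase inhibitor encoded by Cdkn2c, together with the orange fluorescent protein mKO2. Tamoxifen was given by intraperitoneal injection in all 4 groups. The genotype is given as p18mKO2 over-expression for the p18mKO2+ libraries and as normal for the p18mKO2- libraries, and neither the Cre driver nor the day of injection is given in the sources used here. Tissue was cut by laser microdissection, and the sources used here do not say whether replicates came from separate embryos, so each p-value measures the spread between these libraries. The series asks how cyclin-dependent kinase inhibitors bear on the passage from neuronal to astrocytic output of cortical progenitors.

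Cortical projection neurons are born from radial glia of the ventricular zone in an inside-out order, with subplate and layer 6 neurons first, layer 5 neurons next and upper-layer neurons last. Layer 6 corticothalamic neurons depend on Tbr1 and Sox5, layer 5 subcerebral neurons on Fezf2 and its downstream factor Bcl11b, and these factors repress one another's programs. Newborn neurons leave the ventricular zone within hours to days, while Fezf2 is also transcribed in early cortical progenitors themselves.

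Promoter windows from RefSeq on build GRCm38.p6, running from 250 bases before to 50 bases after an annotated start, were at hand for 7 of the 10 members, with 8 windows in all. 5 are shown because these genes give the contrasting responses described below: Tbr1, Bcl11b and Hs3st4 were higher in p18mKO2+ tissue at E13.5, Nr4a2 was lower and Fezf2 was not called. Each is written 5′ to 3′ on the gene's strand, and capitals mark CpG dinucleotides. The windows are chr2:61804203-61804502 on the plus strand for Tbr1, chr12:108003365-108003664 on the minus strand for Bcl11b, chr7:123982578-123982877 on the plus strand for Hs3st4, chr14:12345816-12346115 on the minus strand for Fezf2 and chr2:57123954-57124253 on the minus strand for Nr4a2.
Tbr1: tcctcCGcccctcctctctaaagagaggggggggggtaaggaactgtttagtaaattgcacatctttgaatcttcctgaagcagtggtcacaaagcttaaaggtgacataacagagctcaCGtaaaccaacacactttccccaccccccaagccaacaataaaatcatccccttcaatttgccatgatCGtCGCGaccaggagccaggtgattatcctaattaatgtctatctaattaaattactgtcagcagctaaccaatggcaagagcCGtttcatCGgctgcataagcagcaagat
Bcl11b: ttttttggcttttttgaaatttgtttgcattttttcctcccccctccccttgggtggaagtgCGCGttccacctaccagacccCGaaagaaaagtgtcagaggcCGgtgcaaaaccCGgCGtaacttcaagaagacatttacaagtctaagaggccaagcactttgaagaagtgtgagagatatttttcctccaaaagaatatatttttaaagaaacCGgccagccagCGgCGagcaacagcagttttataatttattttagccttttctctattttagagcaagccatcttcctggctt
Hs3st4: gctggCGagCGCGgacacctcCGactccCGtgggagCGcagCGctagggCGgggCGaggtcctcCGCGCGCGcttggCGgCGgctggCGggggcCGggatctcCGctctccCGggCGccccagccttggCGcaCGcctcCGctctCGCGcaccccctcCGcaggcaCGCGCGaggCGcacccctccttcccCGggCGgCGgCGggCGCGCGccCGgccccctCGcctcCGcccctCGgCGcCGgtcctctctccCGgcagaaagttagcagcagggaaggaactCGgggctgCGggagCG
Fezf2: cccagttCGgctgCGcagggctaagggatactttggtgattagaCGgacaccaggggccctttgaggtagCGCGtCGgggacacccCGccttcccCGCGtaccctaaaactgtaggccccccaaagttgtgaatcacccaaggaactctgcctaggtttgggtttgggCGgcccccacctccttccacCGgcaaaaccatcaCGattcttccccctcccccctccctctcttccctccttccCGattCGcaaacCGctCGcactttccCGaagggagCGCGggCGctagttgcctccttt
Nr4a2: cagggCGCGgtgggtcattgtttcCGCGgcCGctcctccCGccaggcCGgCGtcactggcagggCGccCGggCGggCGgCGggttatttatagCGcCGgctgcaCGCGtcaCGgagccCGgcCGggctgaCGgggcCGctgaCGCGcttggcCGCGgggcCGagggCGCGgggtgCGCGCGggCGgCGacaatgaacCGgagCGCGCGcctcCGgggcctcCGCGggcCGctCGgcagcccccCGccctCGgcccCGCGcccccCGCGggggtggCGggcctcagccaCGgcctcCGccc

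The windows differ widely in CpG content. Nr4a2 holds 52 CpG in its 300 bases and Hs3st4 holds 47, and 99.4% and 98.6% of the 32851 windows in the table hold fewer than these. Fezf2 has 20, Bcl11b 9 and Tbr1 7, against a median of 7 over all windows. Nr4a2 and Hs3st4, the most CpG-rich of the 5, moved in opposite directions at E13.5. On either strand, the SOX core AACAAT, found in 10.7% of all windows, was present in the windows of Tbr1 (starting 96 bases before the start), Nr4a2 and Tle4, 3 of the 8 member windows. The letters TATAAA, in 13.6% of all windows, were present in those of Bcl11b and Nr4a2. No member window held the E2F letters TTTCGCGC (0.323% of windows) or TTTGGCGC (0.514%), the T-box site AGGTGTGA (1.28%), the NR4A monomer site AAAGGTCA (1.51%) or the proneural E-box CAGATG (17.2%). The 2 E2F forms are variants of one site. These matches describe the windows only. Those of Tbr1 and Fezf2 lie wholly inside the gene coordinates given further below, so they surround internal annotated starts. So do the Sox5 window and the Tle4 window at chr19:14597164-14597463, which are not shown.

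Library totals were 17101971 to 21837088 estimated counts. Cdkn2c, read from the native locus and from any cassette transcript that carries its coding sequence, had 27.7, 32.6 and 30.2 TPM (transcripts scaled to length and library) in E13.5 p18mKO2+ libraries against 26.5, 21.4 and 16.1 TPM in E13.5 p18mKO2- libraries, and 38.2, 43.6 and 32.1 TPM in E16.5 p18mKO2+ libraries against 19.6, 28.7 and 13.7 TPM in E16.5 p18mKO2- libraries. On the count scale its log2 fold change was 0.14 ± 0.26 (SE, adjusted p = 0.798) at E13.5 and 0.32 ± 0.26 (adjusted p = 1) at E16.5 by edgeR's quasi-likelihood test with Benjamini-Hochberg adjustment, so the labels were not checked by a called difference. The third p18mKO2+ library of each stage held both Xist and Y-linked transcripts, and all 3 E13.5 p18mKO2- libraries held Xist with no appreciable Y-linked signal, so the sex of the embryos differed between the E13.5 groups. Sex was uneven at E16.5 as well. Y-linked transcripts stood at 135, 182 and 81.7 CPM (counts scaled to library size) in E16.5 p18mKO2+ libraries. In E16.5 p18mKO2- libraries they stood at 0.0614, 168 and 0.232 CPM. The ribosomal RNA gene CT010467.1 stood at 26200 to 65800 CPM in E13.5 p18mKO2+ libraries and 52400 to 88000 CPM in E13.5 p18mKO2- libraries. At E16.5 it stood at 16600 to 39600 CPM in p18mKO2+ libraries and 70600 to 152000 CPM in p18mKO2- libraries.

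At E13.5 most of the deep-layer genes were more abundant in p18mKO2+ tissue. In all, 6 of the 10 rose (Tbr1, Bcl11b, Sox5, Tle4, Ldb2 and Hs3st4), 1 fell (Nr4a2) and 3 did not pass the test (Fezf2, Foxp2 and Crym). Of all genes tested, 7.29% were called higher and 3.49% lower, 10.8% in either direction. The median log2 fold change of the 10 genes was 0.87, beside 0.0076 over all genes. With the Y-linked level or the ribosomal RNA level of each library as a covariate, 4 of the 7 calls held (Bcl11b, Sox5, Tle4 and Hs3st4), and 5 held without the libraries carrying transcripts of both sexes. The fold changes of the genes that lost their call kept their sign: Tbr1 stood at 1.17 with the Y-linked covariate (adjusted p = 0.069) and 0.98 with the ribosomal RNA covariate (adjusted p = 0.137). Ldb2 stood at 1.56 (adjusted p = 0.0531) and 1.15 (adjusted p = 0.094), and Nr4a2 at -1.18 (adjusted p = 0.101) and -1.29 (adjusted p = 0.0564), with the Y-linked covariate first in each case. In bulk tissue, fewer cells of a type and less RNA per cell cannot be told apart.

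Among the corticothalamic regulators, Tbr1, a T-box factor needed for layer 6 identity, had 142, 133 and 121 TPM in E13.5 p18mKO2+ libraries against 65.4, 37.3 and 78.5 TPM in p18mKO2- libraries. The groups did not overlap, as for 20.9% of all genes in this direction. Its log2 fold change of 0.96 ± 0.29 lay at the threshold (adjusted p = 0.04997), and the call was lost on leaving out any one of 9 of the 12 libraries, with adjusted p up to 0.156. It held without the third E13.5 p18mKO2- library and without the first or the third E16.5 p18mKO2- library. Sox5, a SOX-family factor that times the production of deep-layer neurons and restrains Fezf2, had 76.7, 73.0 and 54.1 TPM in p18mKO2+ libraries against 23.8, 15.7 and 24.2 TPM in p18mKO2- libraries. Every p18mKO2+ value was more than any p18mKO2- value, and the log2 fold change was 1.40 ± 0.21 (adjusted p = 0.00145). Tle4, a Groucho-family corepressor of corticothalamic neurons, had 36.3, 26.9 and 33.1 TPM in p18mKO2+ libraries against 17.9, 18.5 and 13.2 TPM in p18mKO2- libraries, a log2 fold change of 0.78 ± 0.14 (adjusted p = 0.00418). The calls of Sox5 and Tle4 held on leaving out any one library, with adjusted p of at most 0.00872 for Sox5 and 0.0264 for Tle4.

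Foxp2, a forkhead factor of layer 6 that is also expressed in striatal projection neurons, did not pass the test. It had 10.2, 11.5 and 34.0 TPM in E13.5 p18mKO2+ libraries against 11.6, 13.6 and 9.12 TPM in p18mKO2- libraries. The third p18mKO2+ library alone was high, and the other two lay inside the p18mKO2- range. That library also had the highest summed TPM of striatal genes (599.4) and of ventral telencephalon and GABA genes (593.4) at E13.5. The log2 fold change was 0.51 ± 0.42 (adjusted p = 0.499) and -0.22 without that library, and the part of the striatal transcripts in this value was not tested.

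Hs3st4, which encodes a heparan sulfate 3-O-sulfotransferase and marks layer 6, showed the widest gap among the 10 genes. It had 10.2, 12.9 and 15.8 TPM in E13.5 p18mKO2+ libraries, from 376, 525 and 629 estimated counts, against 1.44, 0.41 and 0.64 TPM in p18mKO2- libraries, from 54, 15 and 23 estimated counts. The lowest p18mKO2+ library exceeded the highest p18mKO2- library several times over. The log2 fold change was 3.78 ± 0.38, a 13.8-fold difference (adjusted p = 8.31e-05), and adjusted p was at most 0.000937 on leaving out any one library.

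The subcerebral genes split. Bcl11b (Ctip2), a zinc finger factor that directs corticospinal axon outgrowth and is also made by striatal neurons and interneurons, had 76.3, 71.2 and 70.4 TPM in E13.5 p18mKO2+ libraries against 24.3, 20.8 and 20.5 TPM in p18mKO2- libraries. Within each group the values lay close together, at 72.6 ± 3.20 TPM in p18mKO2+ and 21.9 ± 2.07 TPM in p18mKO2- libraries (SD, n = 3 each), and the log2 fold change was 1.56 ± 0.19 (adjusted p = 0.000387). Fezf2, the zinc finger factor that selects subcerebral identity upstream of Bcl11b, had 87.6, 98.3 and 49.9 TPM in p18mKO2+ libraries against 99.4, 73.7 and 126 TPM in p18mKO2- libraries. Its groups overlapped and its log2 fold change was -0.51 ± 0.30 (adjusted p = 0.316), with a 95% interval of -1.11 to 0.079.

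Ldb2, a LIM-domain-binding adaptor of corticospinal neurons, had 17.4, 20.0 and 27.4 TPM in E13.5 p18mKO2+ libraries against 8.05, 7.79 and 4.64 TPM in p18mKO2- libraries. The groups did not overlap, and the log2 fold change was 1.48 ± 0.34 (adjusted p = 0.014). The call was lost without the third p18mKO2+ library (adjusted p = 0.0536) and without the third p18mKO2- library (adjusted p = 0.0519). Crym, which encodes the thyroid hormone-binding mu-crystallin found in corticospinal neurons, had 11.9, 4.87 and 6.53 TPM in p18mKO2+ libraries against 3.41, 7.44 and 3.42 TPM in p18mKO2- libraries. These overlapped, and its log2 fold change was 0.52 ± 0.47 (adjusted p = 0.546).

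Nr4a2 (Nurr1), an orphan nuclear receptor of subplate and layer 6b neurons that can also respond to activity as an immediate early gene, went the other way. It had 11.3, 12.5 and 21.7 TPM in E13.5 p18mKO2+ libraries against 32.2, 25.7 and 27.0 TPM in p18mKO2- libraries. All p18mKO2+ values lay under the p18mKO2- range, as for 7.66% of all genes, and the log2 fold change was -1.06 ± 0.30 (adjusted p = 0.0353). The call was lost on leaving out any one E13.5 library other than the third p18mKO2+ library, with adjusted p between 0.0627 and 0.146. Of 7 immediate early genes tested, 1 rose (Dusp1, 0.57 ± 0.15, adjusted p = 0.0308) and none fell, and their summed level was 51.99 to 58.81 TPM in p18mKO2+ libraries and 38.82 to 54.77 TPM in p18mKO2- libraries.

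**Figure D1:**
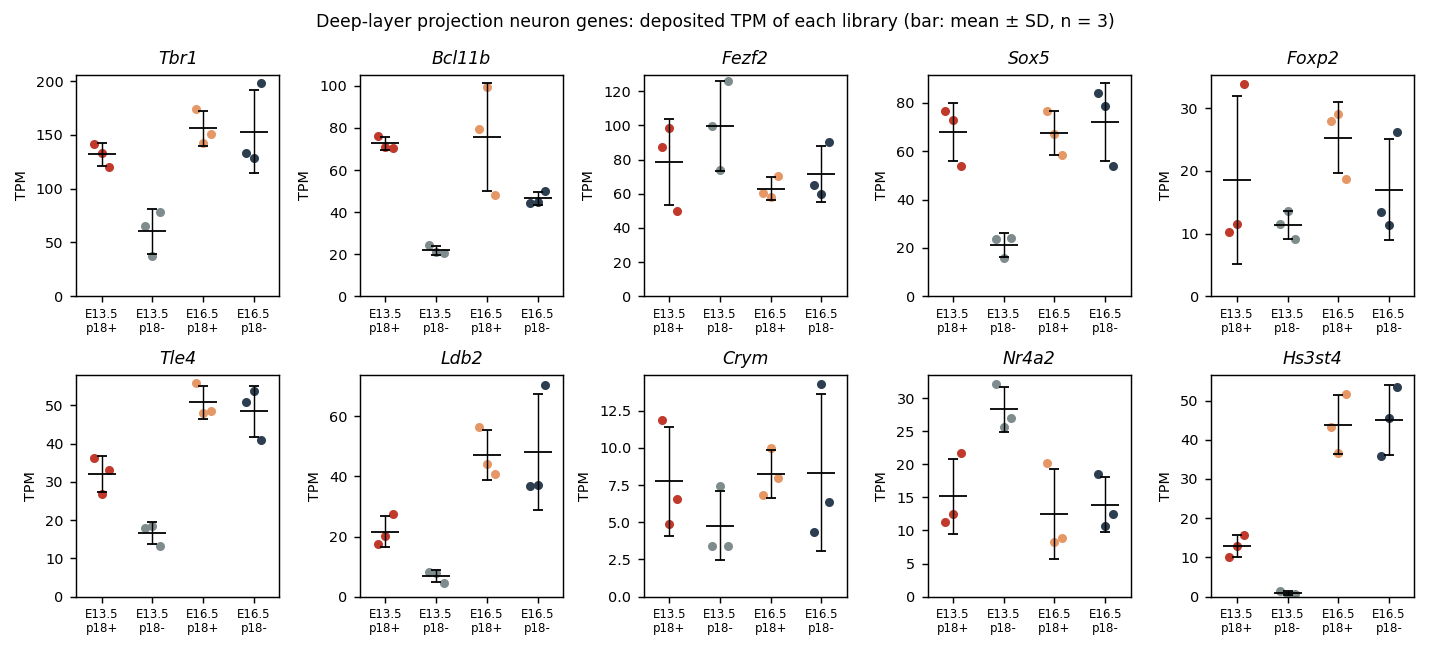
TPM of each of the 10 deep-layer genes (vertical axes, 1 panel a gene) in the 12 libraries, with the 3 libraries of each group as points and their mean as a bar. Hs3st4 lies at 0.41 to 1.44 TPM in E13.5 p18mKO2- libraries and above 10 TPM in every other library, whereas Nr4a2 is highest in E13.5 p18mKO2- libraries.

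Further deep-layer genes went both ways at E13.5, more of them higher. Of 17 further genes of layers 5 and 6, 8 rose and 1 fell, with a median log2 fold change of 0.84. The genes with the smallest p were Etv1, an ETS factor of layer 5 (1.23 ± 0.16, adjusted p = 0.000454), Crim1, a transmembrane protein of corticospinal neurons (1.16 ± 0.16, adjusted p = 0.000713), Ntsr1, the neurotensin receptor of layer 6 (1.77 ± 0.26, adjusted p = 0.00112), and Nfe2l3 (2.24 ± 0.40, adjusted p = 0.00362). Otx1, a homeobox factor of progenitors and layer 5, fell (-0.72 ± 0.17, adjusted p = 0.0175). Of 5 subplate and layer 6b genes tested out of 6 listed, Nxph3, a neurexophilin, rose (3.36 ± 0.52, adjusted p = 0.00153) and Lpar1, a lysophosphatidic acid receptor, fell (-0.92 ± 0.25, adjusted p = 0.0327), while Cplx3 did not pass the filter.

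Markers of other cell types moved beside these genes. Pan-neuronal genes rose in 12 of 18 cases and fell in none, led by Myt1l (2.08 ± 0.18, adjusted p = 4.24e-05) and Dcx (1.49 ± 0.15, adjusted p = 0.000107), and their summed level was 3552 to 5867 TPM in E13.5 p18mKO2+ libraries and 1774 to 2221 TPM in p18mKO2- libraries. Of 12 radial glia genes, none rose and 6 fell, among them Emx2 (-1.02 ± 0.16, adjusted p = 0.00156) and Sox2 (-0.59 ± 0.14, adjusted p = 0.0148), and their sum was 2043 to 2654 TPM in p18mKO2+ libraries and 2754 to 3132 TPM in p18mKO2- libraries. Callosal and upper-layer genes rose in 5 of 10 cases, among them Mef2c (2.11 ± 0.27, adjusted p = 0.000424) and Unc5d (1.77 ± 0.23, adjusted p = 0.000428), and Lhx2 fell. Of 8 intermediate progenitor genes 2 fell (Neurog1 and Gadd45g). Ventral and GABA genes, which mark migrating interneurons, rose in 2 of 12 cases (Lhx6 and Gad1), striatal genes in 1 of 13 (Drd1) and vascular, blood and meningeal genes in 2 of 12 (Rgs5 and Cldn5). None of 6 Cajal-Retzius genes and none of 8 cortical hem and choroid plexus genes were called. Few calls did not mean small shifts: median log2 fold changes were 0.96 for ventral and GABA, 0.93 for striatal and 1.395 for Cajal-Retzius genes. Those of the 10 deep-layer, the pan-neuronal and the callosal and upper-layer genes were 0.87, 1.16 and 0.705. Hem and choroid plexus genes had a median of 0.20, and vascular, blood and meningeal genes -0.078. The part of these cell types in the results for the deep-layer genes was not tested. Values relative to pan-neuronal genes follow.

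To set each gene against the neuronal RNA of its own library, the mean log2 CPM of the 18 pan-neuronal genes was subtracted from its log2 CPM. On this scale the E13.5 difference, p18mKO2+ minus p18mKO2-, was -0.063 for Tbr1, 0.47 for Bcl11b, 0.31 for Sox5 and -0.32 for Tle4, with overlapping groups for each. Hs3st4 kept a difference of 2.77 and Ldb2 of 0.36 with no overlap between groups, a separation that 0.947% of all genes showed in the higher direction. For Ldb2 the groups nearly met, at -3.496 in the lowest p18mKO2+ library and -3.527 in the highest p18mKO2- library. Fezf2 at -1.63, Foxp2 at -0.77 and Nr4a2 at -2.20 were lower without overlap, as were 63.7% of all genes. Crym differed by -0.59 and overlapped. Hs3st4 stood at -3.44, -2.80 and -3.57 in p18mKO2+ libraries against -5.38, -6.73 and -6.02 in p18mKO2- libraries. With the pan-neuronal mean as a covariate in the fit, calls remained for Hs3st4 (2.98 ± 0.48, adjusted p = 0.0145), Sox5 (1.86 ± 0.33, adjusted p = 0.0205) and Nr4a2 (-2.02 ± 0.43, adjusted p = 0.0482), 3 of the 7. Those of Tbr1 (0.59, adjusted p = 0.696), Bcl11b (1.34, adjusted p = 0.0808), Tle4 (0.70, adjusted p = 0.302) and Ldb2 (0.25, adjusted p = 0.856) were lost. The covariate itself did not overlap between the E13.5 groups, at 7.387 to 8.324 in p18mKO2+ and 6.549 to 6.917 in p18mKO2- libraries. This fit therefore cannot separate the p18mKO2 label from neuronal RNA, for calls held or lost.

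**Figure D2:**
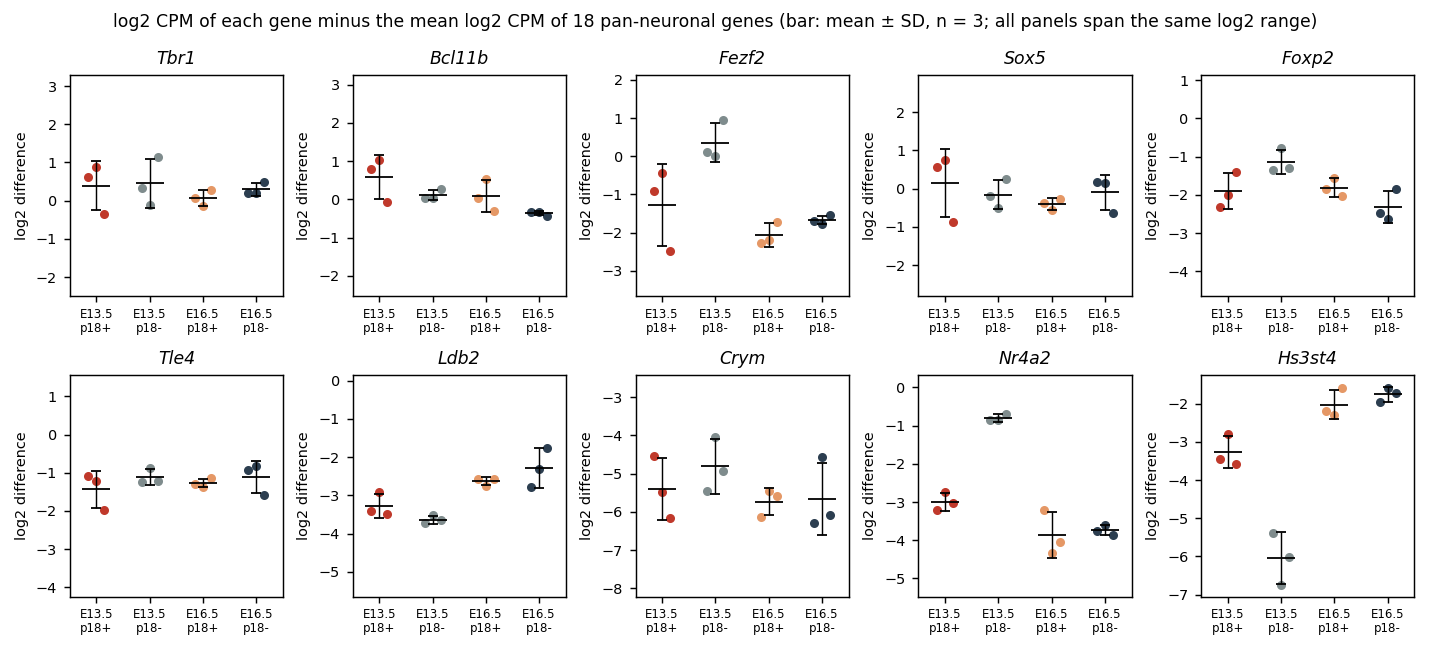
Log2 CPM of each deep-layer gene minus the mean log2 CPM of 18 pan-neuronal genes in the same library, for the 3 libraries of each group. At E13.5 Tbr1, Bcl11b, Sox5 and Tle4 overlap between p18mKO2+ and p18mKO2- libraries, while Hs3st4 stays apart with p18mKO2+ higher.

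At E16.5 none of the 10 genes was called between p18mKO2+ and p18mKO2- tissue by edgeR's quasi-likelihood test, and of all genes 0% were called. Adjusted p was 1 for each of the 10. At an unadjusted p under 0.05 there was 1 of the 10 (Bcl11b), beside 2.54% of all genes. DESeq2 called 16 of all genes, limma-voom 2, and edgeR without the filter on low counts 81, of which 54 were higher and 27 lower, with none of the 10 among them. In TPM none of the 10 separated the groups, beside 14.4% of all genes higher and 1.17% lower without overlap. In CPM, the scale closest to the test, Sox5 and Tle4 separated the groups with p18mKO2+ lower, and the other 8 overlapped, beside 4.07% of all genes higher and 3.88% lower without overlap. The median log2 fold change of the 10 genes was -0.29.

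Tbr1 had 174, 143 and 151 TPM in E16.5 p18mKO2+ libraries against 133, 128 and 198 TPM in p18mKO2- libraries, a log2 fold change of -0.32 ± 0.29 with a 95% interval of -0.89 to 0.24. Sox5 had 76.7, 67.2 and 58.3 TPM in p18mKO2+ libraries against 83.9, 78.5 and 53.9 TPM in p18mKO2- libraries (-0.33 ± 0.21). Tle4 had 55.9, 48.1 and 48.7 TPM in p18mKO2+ libraries against 50.8, 53.7 and 40.8 TPM in p18mKO2- libraries (-0.19 ± 0.14). All 3 corticothalamic genes overlapped on the TPM scale. On the CPM scale Sox5 had 239.3, 191.1 and 250.3 in p18mKO2+ libraries against 300.7, 288.4 and 265.7 in p18mKO2- libraries, and Tle4 had 126.3, 109.5 and 135.4 in p18mKO2+ libraries against 138.9, 148 and 136.4 in p18mKO2- libraries. Every p18mKO2+ value was under the p18mKO2- range for both, although the highest and lowest values of Tle4 nearly met, and neither gene was called. Hs3st4, so far apart at E13.5, had 43.2, 36.6 and 51.8 TPM in p18mKO2+ libraries against 35.9, 45.7 and 53.6 TPM in p18mKO2- libraries. Its log2 fold change was -0.31 ± 0.31, and its 95% interval of -0.91 to 0.29 lies far below the E13.5 value of 3.78.

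Bcl11b had 79.3, 99.3 and 48.3 TPM in E16.5 p18mKO2+ libraries against 44.5, 45.0 and 50.2 TPM in p18mKO2- libraries, a log2 fold change of 0.41 ± 0.19 with a 95% interval of 0.037 to 0.78. The first and second p18mKO2+ libraries were above every p18mKO2- library, and the third lay among them. The summed striatal genes of these p18mKO2+ libraries stood in the same order, at 704.7, 875.3 and 531.9 TPM for the first to the third, and the ventral and GABA genes at 336.8, 509.1 and 297.3 TPM, against 385.8 to 429.5 TPM and 148.2 to 165.1 TPM in p18mKO2- libraries. Their part in the Bcl11b values was not tested. Relative to the pan-neuronal mean, Bcl11b was 0.44 higher in p18mKO2+ libraries without overlap, as were 2.92% of all genes. The groups nearly met, at -0.316 in the third p18mKO2+ library and -0.325 in the highest p18mKO2- library.

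Fezf2 had 60.3, 58.2 and 70.5 TPM in E16.5 p18mKO2+ libraries against 64.8, 59.8 and 90.3 TPM in p18mKO2- libraries (-0.47 ± 0.30). Foxp2 had 27.98, 29.2 and 18.8 TPM in p18mKO2+ libraries against 13.4, 11.4 and 26.2 TPM in p18mKO2- libraries (0.32 ± 0.42). Ldb2 had 56.5, 44.2 and 40.9 TPM in p18mKO2+ libraries against 36.8, 37.3 and 70.6 TPM in p18mKO2- libraries (-0.55 ± 0.32). The groups overlapped for each of these. Crym, at 6.80, 10.0 and 7.97 TPM in p18mKO2+ libraries, lay inside its range of 4.31, 14.3 and 6.34 TPM in p18mKO2- libraries. Nr4a2 had 20.3, 8.18 and 8.90 TPM in p18mKO2+ libraries against 18.5, 10.6 and 12.5 TPM in p18mKO2- libraries (-0.087 ± 0.30). Its value in the first p18mKO2- library rests on 319 estimated counts and a deposited transcript length of 1853 bases, against 3109 to 3427 bases in the other 11 libraries, so that its TPM there is raised by the length assigned. TPM ran above the count scale in p18mKO2+ libraries: the median of all genes was 0.14 higher in p18mKO2+ tissue at E13.5 and 0.23 higher at E16.5 on log2(TPM + 1), beside 0.0076 and -0.010 on the count scale. On log2(TPM + 1) the sign at E16.5 turned for Tbr1, Tle4, Ldb2 and Crym.

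The p18mKO2 effect differed between the stages for 5 of the 10 genes. The E16.5 effect minus the E13.5 effect was -1.15 ± 0.27 for Bcl11b (adjusted p = 0.0394), -1.73 ± 0.30 for Sox5 (adjusted p = 0.00875), -0.97 ± 0.20 for Tle4 (adjusted p = 0.0226), -2.03 ± 0.47 for Ldb2 (adjusted p = 0.0358) and -4.10 ± 0.49 for Hs3st4 (adjusted p = 0.000668). All 5 were lower at E16.5, beside 2.4% of all genes called lower, 0.298% higher and 2.7% called in either direction. The difference was not called for Tbr1 (-1.28 ± 0.41, adjusted p = 0.116), but was called for it with DESeq2 (-1.28, adjusted p = 0.0281) and without the filter on low counts (-1.27, adjusted p = 0.00028). Nor was it called for Nr4a2 (0.98 ± 0.42, adjusted p = 0.264), Crym (-0.78 ± 0.66), Foxp2 (-0.19 ± 0.59) or Fezf2 (0.046 ± 0.43). The calls of Sox5 and Hs3st4 held on leaving out any one library. Those of Bcl11b, Ldb2 and Tle4 were lost on leaving out any one of 9, 8 and 4 of the 12 libraries, with adjusted p up to 0.0974, 0.112 and 0.089. For Bcl11b these are all 6 E13.5 libraries, the first and the third E16.5 p18mKO2+ libraries and the third E16.5 p18mKO2- library. For Ldb2 they are every E13.5 library but the second p18mKO2+ one, and all 3 E16.5 p18mKO2+ libraries. For Tle4 they are the first E13.5 p18mKO2+, the first and second E16.5 p18mKO2+ and the second E16.5 p18mKO2- libraries. Of the 17 further deep-layer genes 5 were called lower, led by Crim1 (-1.49 ± 0.22, adjusted p = 0.00319) and Ntsr1 (-2.03 ± 0.34, adjusted p = 0.00801). Nxph3 of the subplate list was also lower (-3.80 ± 0.68, adjusted p = 0.0102). Of the pan-neuronal genes 5 of 18 were called lower, and of the radial glia genes 3 of 12 higher. Callosal and upper-layer genes were called lower in 5 of 10 cases, led by Inhba (-6.34 ± 0.87, adjusted p = 0.00212) and Mef2c (-2.475 ± 0.37, adjusted p = 0.00319). The lower effect at E16.5 was thus not particular to deep-layer genes.

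**Figure D3:**
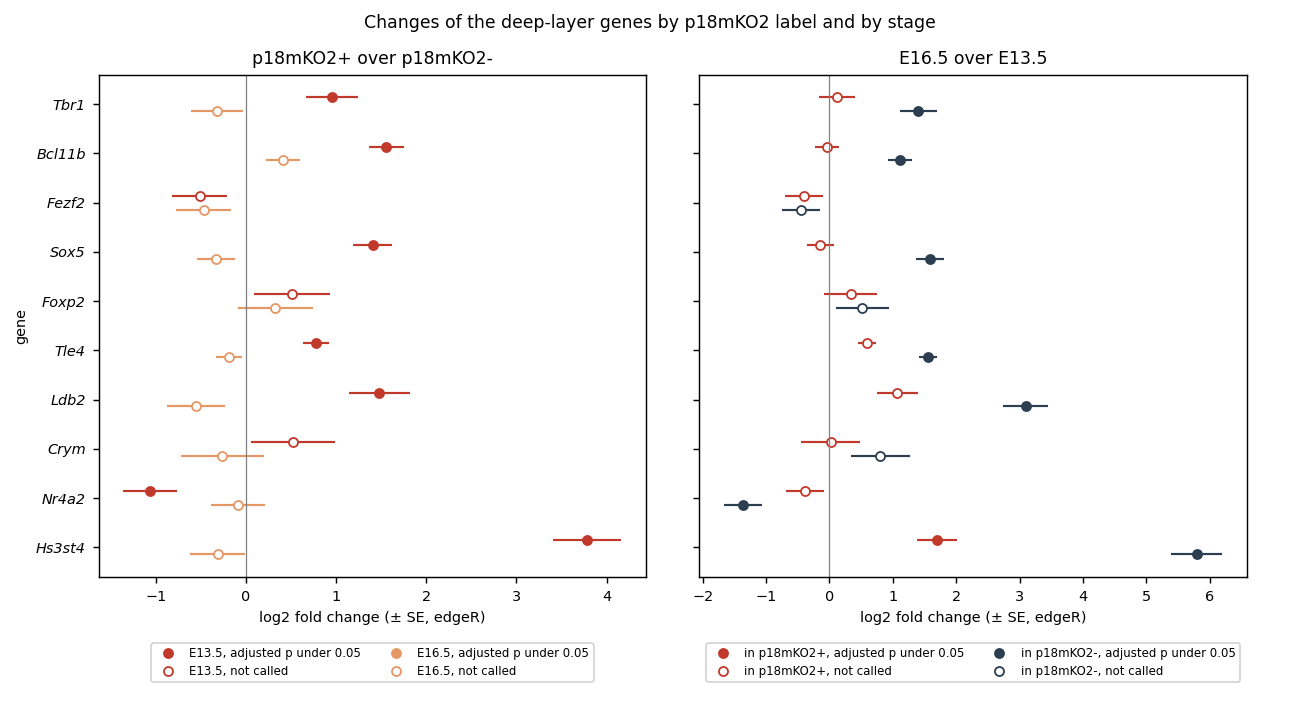
Log2 fold change with its standard error for each deep-layer gene, for p18mKO2+ over p18mKO2- at each stage (left) and for E16.5 over E13.5 in p18mKO2+ and p18mKO2- tissue (right), with filled points for adjusted p under 0.05. At E13.5 6 genes lie right of 0 and Nr4a2 left of it as filled points, and no point is filled for the p18mKO2 difference at E16.5.

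Between the stages, the deep-layer genes were mostly higher at E16.5 in p18mKO2- tissue. In all, 6 rose and 1 fell, beside 16.4% of all genes higher and 13.4% lower, 29.8% in either direction. This comparison and the p18mKO2 comparison at E13.5 share the E13.5 p18mKO2- libraries, so a low value there raises both, and their values are given side by side only. The E16.5 minus E13.5 log2 fold change was 1.40 ± 0.29 for Tbr1 (adjusted p = 0.00253), 1.59 ± 0.22 for Sox5 (adjusted p = 0.000102), 1.56 ± 0.15 for Tle4 (adjusted p = 6.2e-06) and 1.11 ± 0.19 for Bcl11b (adjusted p = 0.000677). The p18mKO2 log2 fold changes of these genes at E13.5 were 0.96, 1.40, 0.78 and 1.56. Hs3st4 had the largest stage change of the 10, at 45.0 ± 8.84 TPM at E16.5 and 0.830 ± 0.541 TPM at E13.5 in p18mKO2- tissue (SD, n = 3 each; log2 fold change 5.80 ± 0.40, adjusted p = 5.72e-07). Ldb2 followed at 48.2 ± 19.4 TPM at E16.5 and 6.83 ± 1.90 TPM at E13.5 (3.10 ± 0.35, adjusted p = 2.83e-05). Nr4a2 fell to 13.9 ± 4.12 TPM at E16.5, against 28.3 ± 3.45 TPM at E13.5 (-1.36 ± 0.30, adjusted p = 0.00363). Fezf2 (-0.45 ± 0.30), Foxp2 (0.52 ± 0.42) and Crym (0.80 ± 0.47) were not called. The 7 calls held on leaving out any one library.

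In p18mKO2+ tissue the same stage contrast called 1 of the 10 genes, Hs3st4, beside 1.08% of all genes called higher, 0.554% lower and 1.64% in either direction. Hs3st4 averaged 43.9 ± 7.59 TPM at E16.5 and 12.97 ± 2.80 TPM at E13.5 (SD, n = 3 each; log2 fold change 1.70 ± 0.32, adjusted p = 0.0164). The call was lost without the first (adjusted p = 0.079) or second (0.0561) E13.5 p18mKO2+ library or the third E16.5 p18mKO2+ library (0.0763). Tle4 (0.59 ± 0.14, adjusted p = 0.0535) and Ldb2 (1.07 ± 0.33, adjusted p = 0.124) had no overlap between the stages in TPM, as for 13.2% of all genes, but were not called. Bcl11b had 75.6 ± 25.7 TPM at E16.5 and 72.6 ± 3.20 TPM at E13.5 (-0.034 ± 0.19, 95% interval -0.41 to 0.34), and Sox5 had 67.4 ± 9.19 TPM at E16.5 and 67.9 ± 12.1 TPM at E13.5 (-0.14 ± 0.21, 95% interval -0.56 to 0.27). Tbr1 had 156 ± 16.4 TPM at E16.5 and 132 ± 10.8 TPM at E13.5 (0.12 ± 0.29, adjusted p = 0.907). Its TPM did not overlap between the stages either, at 142.69 to 174.31 at E16.5 and 120.51 to 141.95 at E13.5, whereas its CPM did. Of the 17 further deep-layer genes, Ntsr1 alone was called (2.72 ± 0.24, adjusted p = 0.000243), whereas in p18mKO2- tissue 10 rose and 1 fell, including Ntsr1 (4.75 ± 0.27, adjusted p = 1.18e-07) and Crim1 (1.88 ± 0.16, adjusted p = 3.08e-06). The difference between these stage changes is the same quantity as the difference between the p18mKO2 effects given above. Pan-neuronal genes rose with stage in 15 of 18 cases in p18mKO2- tissue and in 2 of 18 in p18mKO2+ tissue, while 10 of 12 radial glia genes fell and 1 rose in p18mKO2- tissue and 1 fell in p18mKO2+ tissue. Of 10 callosal and upper-layer genes, 8 rose and 1 fell in p18mKO2- tissue, and 6 rose and none fell in p18mKO2+ tissue.

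Relative to the pan-neuronal mean, the E16.5 minus E13.5 difference of Hs3st4 was 4.28 in p18mKO2- tissue and 1.24 in p18mKO2+ tissue, and that of Ldb2 was 1.34 in p18mKO2- tissue and 0.65 in p18mKO2+ tissue. Neither gene overlapped between stages in either tissue, a separation shown in the higher direction by 2.08% of all genes in p18mKO2- tissue and 2.74% in p18mKO2+ tissue. Tbr1 differed by -0.15 in p18mKO2- tissue, with overlap, and Bcl11b by -0.47 without it. Fezf2 at -2.02, Foxp2 at -1.17 and Nr4a2 at -2.93 were also lower without overlap in p18mKO2- tissue, as were 74.1% of all genes.

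With the pan-neuronal mean as a covariate in the fit, 4 of the 7 stage calls in p18mKO2- tissue held: Hs3st4 (4.59 ± 0.66, adjusted p = 0.00282), Sox5 (2.28 ± 0.46, adjusted p = 0.0202), Tle4 (1.45 ± 0.34, adjusted p = 0.038) and Nr4a2 (-2.69 ± 0.55, adjusted p = 0.0229). Those of Tbr1 (0.82, adjusted p = 0.642), Bcl11b (0.79, adjusted p = 0.448) and Ldb2 (1.21, adjusted p = 0.332) were lost, and Foxp2 was called lower (-2.32 ± 0.50, adjusted p = 0.0273). In p18mKO2+ tissue none of the 10 was called in this fit, with Hs3st4 at 1.36 ± 0.33 (adjusted p = 0.069). In p18mKO2- tissue the covariate did not overlap between stages, at 8.024 to 8.683 at E16.5 and 6.549 to 6.917 at E13.5. There the fit cannot separate stage from neuronal RNA, for calls held or lost.

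Fezf2 and Tbr1, factors of different deep-layer fates, were also set against each other within libraries. The ratio of Tbr1 to Fezf2, computed from TPM within each library, was 1.62, 1.36 and 2.41 in E13.5 p18mKO2+ libraries against 0.658, 0.505 and 0.623 in E13.5 p18mKO2- libraries. At E16.5 it was 2.89, 2.45 and 2.14 in p18mKO2+ libraries and 2.05, 2.15 and 2.19 in p18mKO2- libraries. Thus Fezf2 exceeded Tbr1 in the 3 E13.5 p18mKO2- libraries and in no other library. The ratio was higher without overlap in p18mKO2+ tissue at E13.5, as was the ratio to Fezf2 of 17.4% of all genes, and the exact permutation test of 3 libraries against 3 cannot give a p below 0.1.

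The ratio of Sox5 to Fezf2 was 0.876, 0.743 and 1.08 in E13.5 p18mKO2+ libraries against 0.239, 0.212 and 0.192 in p18mKO2- libraries, and that of Bcl11b to Fezf2 was 0.871, 0.724 and 1.41 in p18mKO2+ libraries against 0.244, 0.282 and 0.163 in p18mKO2- libraries. At E16.5 Bcl11b to Fezf2 was 1.31, 1.71 and 0.685 in p18mKO2+ libraries and 0.686, 0.752 and 0.556 in p18mKO2- libraries, which overlapped.

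**Figure D4:**
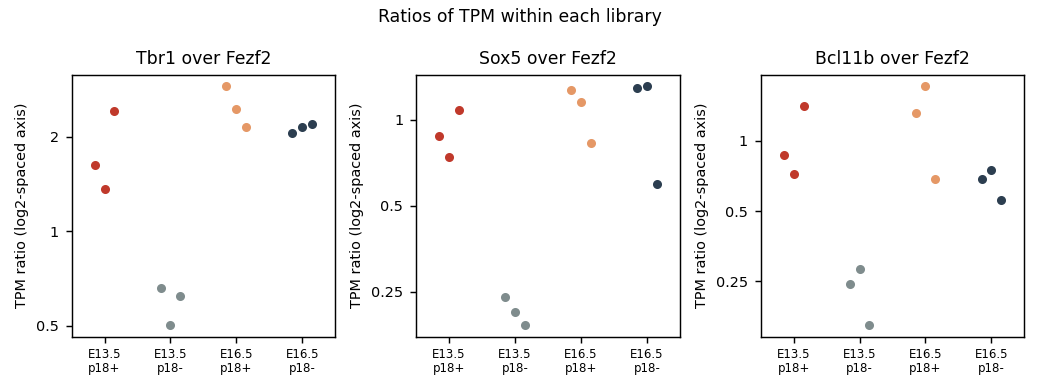
Within-library TPM ratios (vertical axes, log scale) of Tbr1, Sox5 and Bcl11b to Fezf2, with the 3 libraries of each group as points. The ratios to Fezf2 are lowest in E13.5 p18mKO2- libraries, where Tbr1 to Fezf2 lies at 0.505 to 0.658.

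The levels of the 10 genes spanned a wide range on the TPM scale, which is per transcript length. In E13.5 p18mKO2- tissue Fezf2 (99.7 ± 26.1 TPM, SD, n = 3) and Tbr1 (60.4 ± 21.1 TPM) were highest and overlapped in range, followed by Nr4a2 at 25.7 to 32.2 TPM. Nr4a2 lay above Bcl11b, at 20.5 to 24.3 TPM, and Sox5, at 15.7 to 24.2 TPM, which overlapped, and Sox5 also overlapped Tle4, at 13.2 to 18.5 TPM. Hs3st4 was lowest, under Crym (4.76 ± 2.32 TPM). In E13.5 p18mKO2+ tissue Tbr1 (132 ± 10.8 TPM) stood above all other members without overlap, and Fezf2 (78.6 ± 25.4 TPM), Bcl11b (72.6 ± 3.20 TPM) and Sox5 (67.9 ± 12.1 TPM) did not separate. In E16.5 p18mKO2- tissue Nr4a2, Foxp2 and Crym were the 3 lowest, at 13.9 ± 4.12, 17.01 ± 8.02 and 8.32 ± 5.29 TPM, and overlapped. The summed TPM of the 10 genes was 433.3 to 479.6 in p18mKO2+ and 220.9 to 307.2 in p18mKO2- tissue at E13.5, and 505 to 601.3 in p18mKO2+ and 484.6 to 602.4 in p18mKO2- tissue at E16.5.

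Likeness of pattern was measured as the root mean square difference of log2 CPM over the 12 libraries, each gene centred on its own mean. Among the members Tbr1 and Sox5 were closest (0.325), then Sox5 and Tle4 (0.403), and Nr4a2 and Hs3st4 were farthest apart (2.95). Of 10251 other genes with a mean of at least 5 TPM, those nearest to Tbr1 were Mfsd8 (0.148), Scg5 (0.161) and Cib2 (0.188), those nearest to Bcl11b were Islr2 (0.272), Zfp949 (0.31) and Nptx1 (0.312), and those nearest to Fezf2 were Psmg2 (0.194), Acot13 (0.21) and Mrpl33 (0.228). All 12 libraries and their scaling are shared by these values, which are descriptions with no test.

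In GENCODE vM21 coordinates (GRCm38), Tbr1 lies at chr2:61802930-61814114, Bcl11b at chr12:107910403-108003602, Fezf2 at chr14:12342094-12348189, Sox5 at chr6:143828425-144781977, Foxp2 at chr6:14901349-15441977 and Tle4 at chr19:14448150-14598051. Ldb2 lies at chr5:44472132-44799680, Crym at chr7:120186380-120202111, Nr4a2 at chr2:57106830-57124003 and Hs3st4 at chr7:123982869-124398989. Genes annotated within them had few counts, at most 1.81% of the member's mean count (Gm3364, inside Ldb2).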

How the data were processed

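PolyA RNA of the dissected ventricular zone was sequenced in 12 libraries with a directional kit, per the labels' protocols. The authors deposited RSEM expected counts and TPM per gene, together with transcript lengths and the posterior standard deviation of each count, which was 0 for every member. Build GRCm38, RSEM 1.2.31, STAR 2.7.2b and cutadapt 3.4 are listed in the submitters' processing notes, and neither annotation release nor strandedness of the counting is given in the sources used here. Symbols were matched through GENCODE vM21, which holds 55227 of the 55487 identifiers.

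Expected counts were rounded and fitted in edgeR 4.0.16 (R 4.3.3) with TMM scaling, filterByExpr and 1 mean per group over all 12 libraries (8 residual degrees of freedom, common biological coefficient of variation 0.311). Quasi-likelihood p-values were Benjamini-Hochberg adjusted over 16798 genes, with a threshold of 0.05. Each standard error is the size of the log2 fold change over the root of its F statistic, and 95% intervals are 1.96 standard errors. Log2 CPM used a prior count of 2. TPM is printed for levels and ratios.

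Groups come from the sample titles. Alternatives were RLE factors, DESeq2 1.42.0, limma 3.58.1 on voom values or log2(TPM + 1), other filters, a replicate block, fits to the compared groups alone, each library left out, sex, and covariates for Y-linked, ribosomal and pan-neuronal RNA. Every member is named; from other lists, up to 4 genes of smallest p are named, with every gene of a list that has few calls. 1 gene of the callosal list is not reported here. The members and lists were chosen with earlier results of these data known. Figures were drawn with matplotlib 3.10.9.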

Additional observations from a re-analysis of the deposited data

Results flagged for a closer look

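The p18mKO2 effect differed between E16.5 and E13.5 for 5 deep-layer genes by the test of the difference itself (edgeR's quasi-likelihood test with Benjamini-Hochberg adjustment). The E16.5 effect minus the E13.5 effect was -4.10 on the log2 scale for Hs3st4, whose p18mKO2+ over p18mKO2- log2 fold change was -0.31 at E16.5 and 3.78 at E13.5. It was -2.03 for Ldb2 (-0.55 at E16.5 and 1.48 at E13.5) and -1.73 for Sox5 (-0.33 at E16.5 and 1.40 at E13.5). It was -1.15 for Bcl11b (0.41 at E16.5 and 1.56 at E13.5) and -0.97 for Tle4 (-0.19 at E16.5 and 0.78 at E13.5). Of all genes, 2.7% were called in either direction, 2.4% lower and 0.298% higher. Of 10 callosal and upper-layer genes, 5 were called lower as well. In the 12 fits that each left out 1 library, the call held in 3 for Bcl11b, 4 for Ldb2 and 8 for Tle4. It held in all 12 for Sox5 and Hs3st4. With 3 libraries per group, no single library of any group was tested as standing apart.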

How the results depend on the processing

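Of 1190 values of single genes under alternatives, 1042 kept their direction and their side of the threshold, 73 lost a call, 18 gained one and 57 changed sign. At E16.5 no alternative called any of the 10 genes, and in p18mKO2- tissue the 7 stage calls became 5 to 8. At E13.5 the 7 calls of the p18mKO2 comparison became 4 with the Y-linked covariate, 4 with the ribosomal RNA covariate and 3 with the pan-neuronal covariate. Over all genes the 1810 calls there became 957, 729 and 146 with these covariates, 800 without the libraries carrying transcripts of both sexes, and 1063 on log2(TPM + 1). At E16.5 the 0 calls over all genes became 81 without a filter, 54 higher and 27 lower. The 5 calls of the difference between stages became 6 with DESeq2 and 7 without a filter, which added Tbr1 (adjusted p = 0.0281 with DESeq2 and 0.00028 without a filter) and Nr4a2 (adjusted p = 0.0336 without a filter). They became 2 on log2(TPM + 1), 3 with the Y-linked covariate, 2 without the libraries of both sexes, 2 with the pan-neuronal covariate, and 2 to 5 on leaving out 1 library. The single stage call in p18mKO2+ tissue became 2 with RLE factors, 3 with DESeq2, 2 with limma-voom, 3 without a filter, 2 with a mean of at least 5 CPM, 3 in the compared groups alone, 0 without the libraries of both sexes, 0 with the pan-neuronal covariate, and 0 to 3 on leaving out 1 library. The causes were not tested.

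The main fit leaves out the replicate numbers. Over 18 same-numbered pairs of groups the correlation of deviations ran from -0.069 to 0.28, with 8 above 0.1. Of 12 libraries, 11 lay closest to a library of their own number, and the source of this likeness was not tested. With the replicate block the calls among the 10 genes numbered 7 at E13.5, 0 at E16.5, 6 for the E16.5 effect minus the E13.5 effect, with Tbr1 added (-1.34, adjusted p = 0.0354), 2 for stage in p18mKO2+ tissue and 7 for stage in p18mKO2- tissue. Over all genes, in the same order, the 1810, 0, 453, 275 and 5005 calls became 2369, 0, 767, 547 and 5526 with the block.

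For the p18mKO2 effect at E13.5, Foxp2 became -0.22 without the libraries of both sexes, -0.24 with the ribosomal RNA covariate, -1.57 with the pan-neuronal covariate, and -0.22 to 0.78 on leaving out 1 library. For that at E16.5, log2(TPM + 1) gave 0.050 for Tbr1, 0.076 for Tle4, 0.024 for Ldb2 and 0.12 for Crym, and the ribosomal RNA covariate gave -0.11 for Bcl11b, 0.054 for Fezf2, 0.19 for Sox5 and -1.08 for Foxp2. The ribosomal RNA level did not overlap between the E16.5 groups, so at E16.5 this covariate fit cannot separate the p18mKO2 label from ribosomal RNA. Nr4a2 became 0.056 without the libraries of both sexes. Leaving out 1 library gave -0.55 to 0.18 for Nr4a2, -0.58 to 0.28 for Crym, -0.49 to 0.070 for Tbr1 and -0.83 to 0.11 for Ldb2. For the difference between stages, Foxp2 became 0.14 with limma-voom, 0.14 on log2(TPM + 1), 0.16 with the replicate block, 0.66 without the libraries of both sexes, 2.11 with the pan-neuronal covariate, and -0.44 to 0.56 on leaving out 1 library. Fezf2 became -0.016, -0.40 and -0.18 with the block, without both sexes and with the pan-neuronal covariate, and -0.21 to 0.38 on leaving out 1 library. For stage in p18mKO2- tissue, Foxp2 became -2.32 with the pan-neuronal covariate and ran from -0.073 to 0.78 on leaving out 1 library.

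For stage in p18mKO2+ tissue, Bcl11b became 0.013 without a filter, 0.014 with the Y-linked covariate and 0.11 without the libraries of both sexes, and Crym became -0.060 with the block, -0.16 without both sexes, -0.018 with the Y-linked and -0.13 with the ribosomal RNA covariate. Without both sexes Tbr1 became -0.045 and Nr4a2 0.070. With the ribosomal RNA covariate Sox5 became 0.057 and Foxp2 -0.057, and with the pan-neuronal covariate Tbr1 became -0.050, Sox5 0.077 and Foxp2 -0.21. Leaving out 1 library gave -0.20 to 0.17 for Bcl11b, -0.32 to 0.013 for Sox5 and -0.21 to 0.50 for Crym. Depth limits the E13.5 p18mKO2- values of Hs3st4, which rest on 15 to 54 estimated counts.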
